A study of Mus musculus with 12 samples.

Results

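The 10 chemokine genes followed here in mouse liver were Ccl2, Ccl4, Ccl5, Ccl6, Ccl9, Ccl24, Cxcl1, Cxcl9, Cxcl10 and Cxcl16. They were chosen by name, with earlier results of these data known, as 10 of the 54532 genes in the count files. The numbers of them called are therefore set beside the shares of all genes as a description. All 10 had enough counts to be tested in every comparison. The livers came from male mice homozygous for a floxed PPARγ allele, 8 weeks of age when injected with an AAV8 vector. The vector carried Cre recombinase (PPARγ-KO) or, in the control littermates called wild-type here, eGFP, in both cases under the TBG promoter, which is active in hepatocytes. The wild-type mice thus also carried the floxed allele and the virus, and the immune cells that make many chemokines were not the target of Cre. All mice were fed the fast-food diet (FFD), rich in saturated fat, cholesterol and sugar, for 2 or 5 months, with 3 libraries for each genotype and duration, 12 in all, and no group on another diet was analysed here.

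Chemokines are small secreted proteins that draw leukocytes along a concentration gradient by binding G protein-coupled receptors on them. In fatty liver disease, resident macrophages (Kupffer cells), stressed hepatocytes, endothelial and stellate cells release them, and monocytes, T cells, neutrophils and eosinophils follow. Transcription of many chemokine genes is switched on by NF-κB, and that of Cxcl9 and Cxcl10 by interferons. In RNA from whole liver, fewer cells of a type and less RNA per cell cannot be told apart.

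The deposited values were read counts per gene, and levels are given as normalized CPM, counts scaled to a common library size after TMM normalization of all 12 libraries together. The libraries held 16367775 to 27452284 counts, the deepest being replicate 3 of the 2-month PPARγ-KO group. Pparg itself was not lower in the libraries labelled PPARγ-KO. It stood at 39.3 ± 1.92 normalized CPM in wild-type and 56.3 ± 8.84 in PPARγ-KO at 2 months, and at 38.4 ± 2.54 and 84.8 ± 9.05 at 5 months (SD, n = 3 each). These were higher levels by edgeR's quasi-likelihood test at both times (log2 fold changes 0.52 and 1.15, adjusted p = 0.0309 and 2.57e-06). The study also measured PPARγ protein, which is not analysed here. Counts for the whole gene do not show whether the floxed exons were present, so the genotype is used below as labelled, and "PPARγ-KO" means the libraries so labelled.

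The mm10 coordinates in the files equal those of GENCODE M21 for all 10 genes. Ccl2 (ENSMUSG00000035385, chr11:82035571-82037453, plus strand) lies on chromosome 11 in the same region as Ccl5 (ENSMUSG00000035042, chr11:83525778-83530518, minus strand), Ccl9 (ENSMUSG00000019122, chr11:83572919-83578636, minus strand), Ccl6 (ENSMUSG00000018927, chr11:83587882-83593087, minus strand) and Ccl4 (ENSMUSG00000018930, chr11:83662584-83664683, plus strand). Cxcl16 (ENSMUSG00000018920, chr11:70453983-70459984, minus strand) is apart from that cluster on the same chromosome. Chromosome 5 holds Cxcl1 (ENSMUSG00000029380, chr5:90891241-90893115, plus strand), Cxcl9 (ENSMUSG00000029417, chr5:92321347-92328079, minus strand) and Cxcl10 (ENSMUSG00000034855, chr5:92346638-92348889, minus strand), and further away Ccl24 (ENSMUSG00000004814, chr5:135569937-135573049, minus strand). The longest coding transcripts of these genes have 3 to 5 exons.

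Promoters of 5 of the 10 genes were found in the RefSeq table for GRCm38.p6, the assembly that mm10 corresponds to. Those of the interferon-induced pair Cxcl9 and Cxcl10 and of the neighbours Ccl6 and Ccl9 are shown, so that the paired genes compared below can be read side by side. Each line gives the 250 bases before the start of the gene, 5′ to 3′ on its own strand. The bases come from chr5:92328080-92328329 for Cxcl9, chr5:92348890-92349139 for Cxcl10, chr11:83593088-83593337 for Ccl6 and chr11:83578637-83578886 for Ccl9. Capitals mark matches on either strand to the NF-κB consensus, to the interferon response core GAAANNGAAA or to the interferon-gamma activation site TTCNNNGAA.
Cxcl9 promoter: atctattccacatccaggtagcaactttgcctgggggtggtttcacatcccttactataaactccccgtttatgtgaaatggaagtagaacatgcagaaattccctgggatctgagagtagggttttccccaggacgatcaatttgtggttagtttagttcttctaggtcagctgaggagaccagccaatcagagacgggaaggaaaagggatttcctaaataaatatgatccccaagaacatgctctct
Cxcl10 promoter: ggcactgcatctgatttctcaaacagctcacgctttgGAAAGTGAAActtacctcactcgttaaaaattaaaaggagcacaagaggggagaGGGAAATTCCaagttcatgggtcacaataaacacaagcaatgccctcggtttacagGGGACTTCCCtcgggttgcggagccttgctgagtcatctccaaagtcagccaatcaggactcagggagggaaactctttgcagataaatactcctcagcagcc
Ccl6 promoter: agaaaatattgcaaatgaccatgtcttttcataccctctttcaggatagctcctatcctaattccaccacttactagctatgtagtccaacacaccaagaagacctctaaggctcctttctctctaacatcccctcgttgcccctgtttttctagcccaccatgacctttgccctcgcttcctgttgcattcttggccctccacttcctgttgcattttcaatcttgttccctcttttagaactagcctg
Ccl9 promoter: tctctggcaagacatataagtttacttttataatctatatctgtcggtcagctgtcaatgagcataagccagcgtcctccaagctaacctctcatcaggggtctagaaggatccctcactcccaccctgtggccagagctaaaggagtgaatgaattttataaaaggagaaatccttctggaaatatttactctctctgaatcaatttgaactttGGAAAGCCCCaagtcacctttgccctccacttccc

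The Cxcl10 window held 1 interferon response core, 213 to 204 bases before the start, and 2 matches to the NF-κB consensus, at 159 to 150 and 103 to 94. The Ccl9 window held 1 NF-κB match, at 35 to 26. The window of Cxcl1, not shown, held 2 overlapping NF-κB matches, at 71 to 62 and 70 to 61. None of the 3 motifs was matched in the Cxcl9 or Ccl6 window. Of all 32851 promoters in the table, 3.90% held the NF-κB consensus, 2.98% the interferon response core and 7.02% the interferon-gamma activation site. A match is a run of letters and no evidence of binding, and the lack of a match does not show that a site is absent.

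The first question was how the chemokines differed between PPARγ-KO and wild-type livers at each diet duration. At 5 months the fitted level of all 10 was lower in PPARγ-KO, and their median was -1.05 on the log2 scale, against -0.00580 over the 14138 genes tested. Of the 10, 7 passed the test (edgeR's quasi-likelihood test, adjusted p below 0.05): Ccl2, Ccl4, Ccl6, Ccl9, Ccl24, Cxcl1 and Cxcl16. Among all genes tested, 9.51% were called lower and 8.90% higher at this time. In 8 of the 10 genes, every PPARγ-KO library lay below every wild-type library, a pattern seen in 19.0% of all genes, with 15.9% showing the opposite. Ccl5 and Cxcl9 were the genes whose groups overlapped.

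At 2 months none of the 10 passed edgeR's test, 6 having a lower and 4 a higher fitted level in PPARγ-KO. Their median was -0.22 on the log2 scale, against -0.00483 over 14573 genes. Of all genes, 1.78% were called higher and 1.78% lower. Ccl2, Ccl6 and Ccl9, 3 of the 10, had an unadjusted p under 0.05 and were at least 1.3-fold lower, the threshold of the study, against 6.48% of all genes in that direction. DESeq2 called 1 of the 10, Ccl9, and called more of all genes than edgeR did. Ccl2 and Ccl9 lay below wild-type without overlap and Ccl24 above it, as 12.0% and 12.1% of all genes did in these directions.

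**Figure D1:**
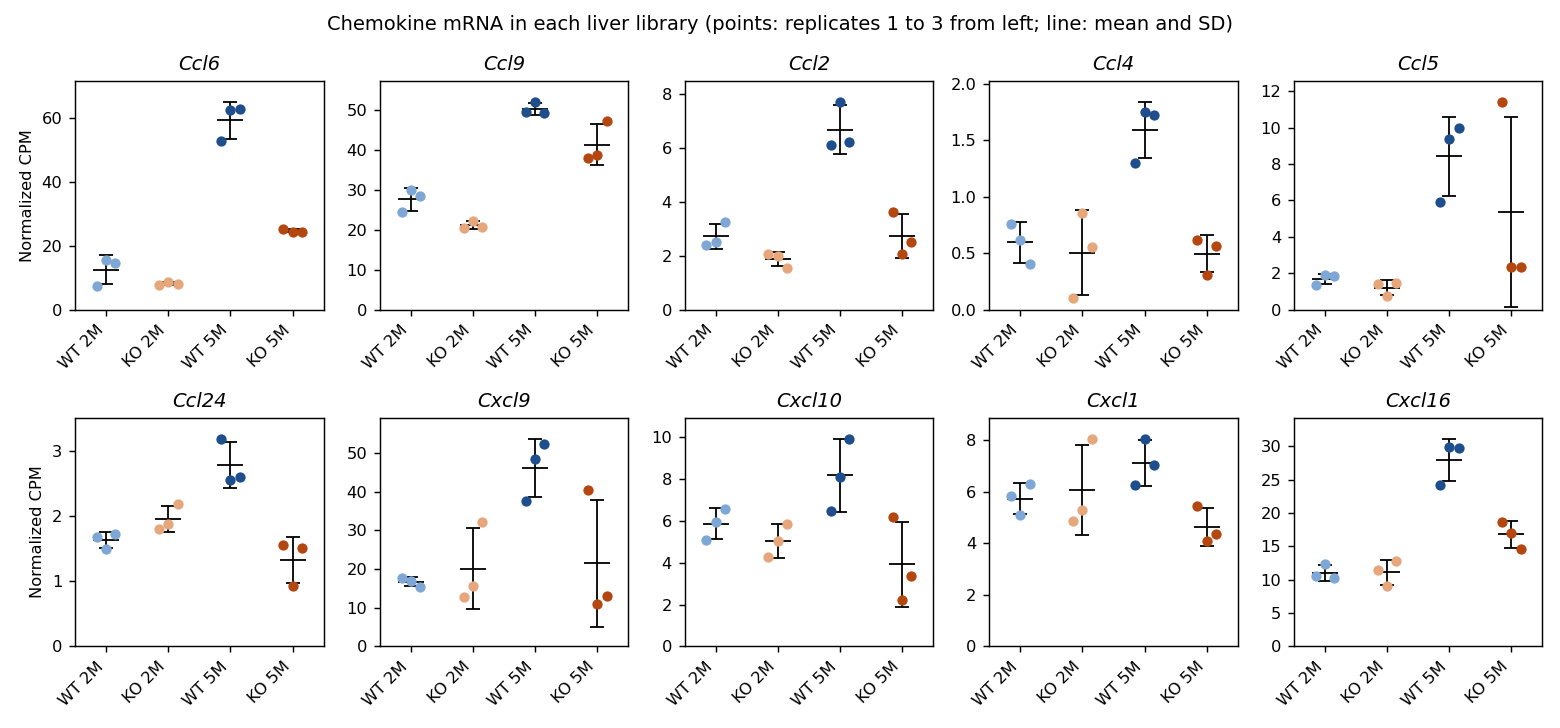
Normalized CPM (vertical axis, from 0, a scale of its own in each panel) of the 10 chemokines in the 12 libraries, with WT for wild-type, KO for libraries labelled PPARγ-KO and 2M and 5M for months of FFD; points are replicates 1 to 3 from left to right, and black lines the mean and SD. WT 5M stood above the other groups for Ccl2, Ccl4, Ccl6 and Cxcl16, and a single KO 5M library (replicate 1) stood far above the others for Ccl5 and Cxcl9.

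Ccl6 and Ccl9, neighbouring genes whose products bind CCR1 on monocytes and macrophages, were among the most abundant of the set. Ccl6 had 52.6, 62.3 and 62.8 normalized CPM in the 5-month wild-type libraries (888 to 1203 counts) and 25.2, 24.4 and 24.4 in PPARγ-KO (386 to 535 counts). The PPARγ-KO libraries were all low and lay within 1.04-fold of each other. Ccl6 was 2.38-fold lower (log2 fold change -1.25, SE 0.08, adjusted p = 1.08e-06), and it kept its call in all 13 alternative analyses, with log2 fold changes of -1.33 to -1.21. At 2 months, Ccl6 stood at 7.31, 15.6 and 14.5 in wild-type and at 7.66, 8.55 and 8.07 in PPARγ-KO. Wild-type replicate 1 was as low as the PPARγ-KO libraries, and the difference did not pass the test (log2 fold change -0.63, SE 0.26, adjusted p = 0.243). Without that wild-type library it was -0.89 with an adjusted p of 0.00116, but leaving this library out raised the number of calls over all genes as well.

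Ccl9 differed less than Ccl6 at 5 months. It had 49.5, 52.1 and 49.4 normalized CPM in wild-type and 37.9, 38.9 and 47.4 in PPARγ-KO, a 1.21-fold lower level without overlap (log2 fold change -0.27, SE 0.09, adjusted p = 0.0405). That call was lost with DESeq2 (adjusted p = 0.0622) and when wild-type replicate 2 or 3 or PPARγ-KO replicate 1 or 2 was left out (adjusted p = 0.139, 0.0937, 0.147 and 0.126). At 2 months Ccl9 was at 24.5, 30.004 and 28.458 in wild-type and at 20.4, 22.3 and 20.7 in PPARγ-KO, again without overlap. The difference just missed the threshold (log2 fold change -0.39, SE 0.10, adjusted p = 0.0624). With the replicate number as a block it passed (adjusted p = 0.0452), but the labels name no pairing of the libraries. It also passed without wild-type replicate 1 (log2 fold change -0.47, adjusted p = 0.00858), whose omission raised the number of calls over all genes as well.

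Ccl2, the main chemoattractant of CCR2-bearing monocytes, was low in all groups but the 5-month wild-type. At 5 months it had 6.10, 7.69 and 6.21 normalized CPM in wild-type (103 to 132 counts) and 3.63, 2.05 and 2.52 in PPARγ-KO (40 to 77 counts). The groups were well apart, and Ccl2 was 2.40-fold lower (log2 fold change -1.26, SE 0.22, adjusted p = 0.00132), a call kept in all 13 alternatives. At 2 months it had 2.40, 2.52 and 3.25 in wild-type and 2.07, 1.99 and 1.56 in PPARγ-KO. The groups did not overlap, but the difference did not pass the test (log2 fold change -0.55, SE 0.24, adjusted p = 0.259).

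Ccl4 and Ccl5 encode attractants of T cells and macrophages. Ccl4 was the rarest of the 10, with 2 to 33 counts per library. At 5 months it had 1.303, 1.748 and 1.722 normalized CPM in wild-type and 0.613, 0.308 and 0.568 in PPARγ-KO, all low. The fitted difference was 3.17-fold, on 22 to 33 against 6 to 13 counts (log2 fold change -1.66, SE 0.36, adjusted p = 0.00617), and the call held in the 12 alternatives in which Ccl4 was tested. At 2 months Ccl4 ranged from 0.406 to 0.764 in wild-type and from 0.103 to 0.855 in PPARγ-KO, a difference not detectable at this depth (adjusted p = 0.876, 95% interval of the log2 fold change -1.57 to 1.096).

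For Ccl5, a T and NK cell product, 1 library decided the 5-month comparison. Wild-type had 5.92, 9.38 and 9.97 normalized CPM, and PPARγ-KO had 11.4, 2.36 and 2.33. Replicate 1 of PPARγ-KO was the highest of the 12 libraries and the other two were low, so that the difference did not pass the test (log2 fold change -0.61, SE 0.75, adjusted p = 0.663). Without that library Ccl5 was lower by -1.83 on the log2 scale (adjusted p = 0.000311). That library was singled out by its values for these same genes. Adjusted p-values without it, here and below, are therefore a description. At 2 months it had 1.36, 1.90 and 1.83 in wild-type and 1.397, 0.741 and 1.488 in PPARγ-KO, with overlapping groups (log2 fold change -0.47, adjusted p = 0.489).

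Cxcl9 and Cxcl10, interferon-induced ligands of the T cell receptor CXCR3, shared this dependence on replicate 1. At 5 months Cxcl9 was at 37.6, 48.4 and 52.3 normalized CPM in wild-type and at 40.4, 11.1 and 13.1 in PPARγ-KO. The first PPARγ-KO library lay inside the wild-type range and the others at a low level, and the fitted difference did not pass the test (log2 fold change -1.07, SE 0.59, adjusted p = 0.323). Without replicate 1 it was -1.93 (adjusted p = 3.88e-05). Cxcl10 had 6.46, 8.10 and 9.92 in wild-type and 6.18, 2.20 and 3.34 in PPARγ-KO. The groups did not overlap, though replicate 1 came close to the lowest wild-type library, and Cxcl10 missed the threshold (log2 fold change -1.04, SE 0.35, adjusted p = 0.0861). Without replicate 1 the change was -1.56 (adjusted p = 0.000800), and DESeq2 called Cxcl10 with all libraries in (adjusted p = 0.00278).

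At 2 months, Cxcl9 had 17.67, 17.03 and 15.37 normalized CPM in wild-type and 12.7, 15.6 and 32.1 in PPARγ-KO. Here replicate 3 of PPARγ-KO was the high one, and the direction turned on it: the log2 fold change was 0.28 with it (adjusted p = 0.752) and -0.24 without it (adjusted p = 0.453). Cxcl10 ran from 5.07 to 6.54 in wild-type and from 4.24 to 5.84 in PPARγ-KO (log2 fold change -0.21, adjusted p = 0.594).

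The 2 libraries that were high for Cxcl9 were also high for T and NK cell genes. The summed level of 11 T and NK cell markers, among them Cd3e and Cd3d, subunits of the T cell receptor complex, was 12.4 normalized CPM in replicate 1 of the 5-month PPARγ-KO group and 5.84 and 5.05 in the other two. All 9 of these markers that were abundant enough to test were highest in replicate 1 of its group, and 7 of them by over 1.5-fold, against 34.3% and 3.34% of all genes. The NK cell markers Klrb1c and Ncr1 were too rare to test. Klrb1c was lowest in replicate 1 (0.330, against 0.461 and 0.505, on 7 to 9 counts). Of 24 interferon pathway genes, 14 were highest in replicate 1, 4 of them by over 1.5-fold. Of the 10 chemokines, 9 were highest in it, and 3 by over 1.5-fold, Ccl5, Cxcl9 and Cxcl10. Of 12 macrophage markers, 1 was highest in it. Replicate 3 of the 2-month PPARγ-KO group stood out less, with a T and NK marker sum of 6.51, against 4.55 and 3.25. In it 8 of the 9 markers and 18 of 24 interferon pathway genes were highest, against 35.0% of all genes. By over 1.5-fold, 2 of the 9 and 2 of the 24 were, against 2.82% of all genes. The markers were rare in that group, for example Cd3d with 0 to 10 counts per library and Cd4 with 19 to 34. The markers were present in every group, and their part in the chemokine values was not tested.

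**Figure D2:**
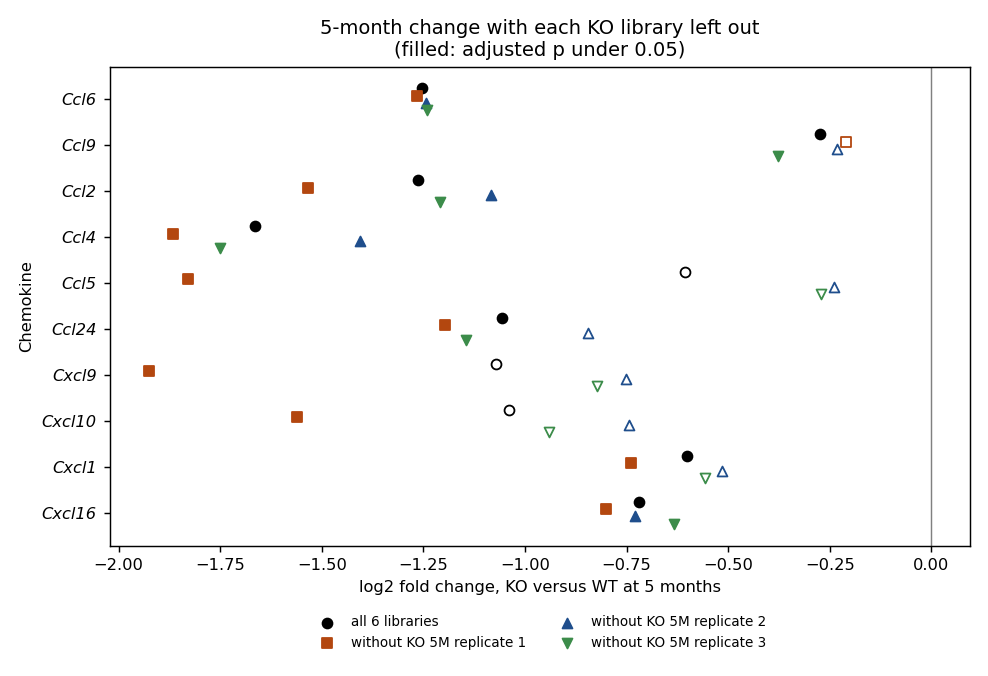
Log2 fold change of each chemokine in PPARγ-KO against wild-type at 5 months (horizontal axis) with all 6 libraries and with each PPARγ-KO library left out; filled symbols have an adjusted p below 0.05. Leaving out replicate 1 moved Ccl5 to -1.83, Cxcl9 to -1.93 and Cxcl10 to -1.56, while Ccl6 stayed near -1.25 throughout.

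Cxcl1, which recruits neutrophils through CXCR2, differed modestly. At 5 months it had 6.28, 8.04 and 7.05 normalized CPM in wild-type and 5.47, 4.10 and 4.35 in PPARγ-KO, without overlap, a 1.52-fold lower level (log2 fold change -0.60, SE 0.17, adjusted p = 0.0255). The call was lost when wild-type replicate 2 or 3 or PPARγ-KO replicate 2 or 3 was left out (adjusted p = 0.129, 0.0794, 0.0887 and 0.0901), and in a single fit of all 12 libraries (adjusted p = 0.0536). At 2 months Cxcl1 had 5.84, 5.10 and 6.29 in wild-type and 4.86, 5.30 and 8.07 in PPARγ-KO, with replicate 3 again the highest (log2 fold change 0.09, adjusted p = 0.864). Without it the sign turned (log2 fold change -0.17).

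Cxcl16, a membrane-bound ligand of CXCR6 that is shed to attract T and NKT cells, had 24.2, 29.8 and 29.7 normalized CPM in wild-type at 5 months and 18.7, 17.1 and 14.6 in PPARγ-KO. The groups were apart, and Cxcl16 was 1.65-fold lower (log2 fold change -0.72, SE 0.11, adjusted p = 0.000609), a call kept in all 13 alternatives. At 2 months it had 10.5, 12.3 and 10.2 in wild-type and 11.4, 9.12 and 12.9 in PPARγ-KO, with overlapping groups (log2 fold change 0.02, 95% interval -0.31 to 0.35, adjusted p = 0.961), and the sign turned with library size alone as the scaling (-0.061). Exons of Cxcl16 share 552 bases with the opposite-strand gene Zmynd15, and those of Cxcl10 share 133 bases with Art3. As the use of strand in counting is not stated, reads of each pair may be mixed. Zmynd15 had a log2 fold change of -0.70 at 5 months (adjusted p = 0.111), on 43 to 135 counts per library, and Art3 one of -0.51 (adjusted p = 0.229), on 23 to 58. Between the times in PPARγ-KO, Zmynd15 fell from 7.49 ± 1.56 to 3.501 ± 1.281 normalized CPM (SD, n = 3 each, adjusted p = 0.00801 by edgeR) while Cxcl16 rose.

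Ccl24, which attracts eosinophils through CCR3 and is made by alternatively activated macrophages, had fitted differences of opposite sign at the 2 times. At 2 months it had 1.69, 1.49 and 1.72 normalized CPM in wild-type (29 to 34 counts) and 1.81, 1.88 and 2.20 in PPARγ-KO (33 to 59 counts), every PPARγ-KO library being slightly higher. That difference did not pass the test (log2 fold change 0.27, SE 0.24, adjusted p = 0.614). At 5 months it had 3.20, 2.56 and 2.61 in wild-type (44 to 54 counts) and 1.56, 0.923 and 1.51 in PPARγ-KO (18 to 33 counts), every PPARγ-KO library being lower. Ccl24 was then 2.08-fold lower (log2 fold change -1.06, SE 0.27, adjusted p = 0.0158), and lost the call when PPARγ-KO replicate 2 was left out (log2 fold change -0.84, adjusted p = 0.0559).

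**Figure D3:**
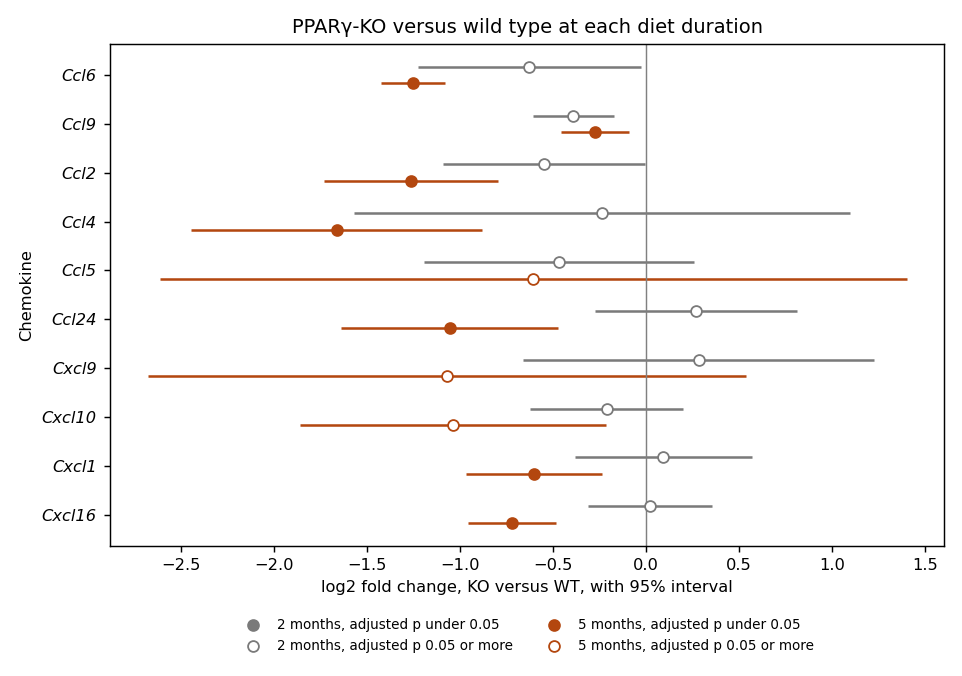
Log2 fold change of each chemokine in PPARγ-KO against wild-type (horizontal axis) with its 95% interval at 2 months (grey) and 5 months (red-brown); filled points have an adjusted p below 0.05. All 10 points at 5 months lie below 0 and 7 are filled, and none of the 2-month points is filled.

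Whether the genotype difference itself changed between the times was tested in a fit of all 12 libraries. None of the 10 passed edgeR's test, while 0.912% of all genes were called lower and 0.661% higher. The fitted value was negative for 9 of the 10, meaning a lower PPARγ-KO to wild-type ratio at 5 months. Ccl2, Ccl24, Cxcl1 and Cxcl16, 4 of the 10, had an unadjusted p under 0.05 and at least a 1.3-fold change, against 5.16% of all genes in that direction. DESeq2 called 2 of them, Cxcl16 and Ccl24, and called more of all genes than edgeR did. Cxcl16 (log2 difference -0.75, SE 0.19) had an adjusted p of 0.0626 with edgeR and 0.0170 with DESeq2, and edgeR called it when PPARγ-KO replicate 2 at 2 months (adjusted p = 0.0255) or wild-type replicate 1 at 5 months (adjusted p = 0.0367) was left out. Ccl24 (log2 difference -1.33, SE 0.35) had adjusted p-values of 0.0731 and 0.0294. Ccl9 was the exception in sign (log2 difference 0.11, SE 0.13, adjusted p = 0.771), with a difference of similar size at both times. Cxcl10 passed without PPARγ-KO replicate 1 at 5 months (log2 difference -1.36, adjusted p = 0.0479).

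The second question was how each genotype differed between 5 and 2 months of FFD. The diet duration cannot be told apart from a batch, since nothing states that the libraries of both times were made together. In wild-type, 23.8% of 14491 genes were called higher and 22.7% lower, and in PPARγ-KO 22.7% of 14478 were called higher and 22.2% lower. Groups without overlap made up 28.7% (higher) and 28.0% (lower) of genes in wild-type and 28.2% and 27.5% in PPARγ-KO.

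In wild-type, all 10 chemokines had a higher fitted level at 5 months and 8 passed the test, with a median log2 fold change of 1.32. Ccl5 and Ccl6 rose most, 4.94-fold (log2 fold change 2.31, SE 0.25, adjusted p = 4.42e-05) and 4.74-fold (2.24, SE 0.27, adjusted p = 0.00130). Cxcl9 rose 2.76-fold, Ccl4 2.67-fold, Cxcl16 2.54-fold, Ccl2 2.44-fold, Ccl9 1.82-fold and Ccl24 1.70-fold, with adjusted p-values from 1.42e-05 (Cxcl16) to 0.0231 (Ccl24). The Ccl24 call was lost without wild-type replicate 2 at 2 months, replicate 1 at 5 months or replicate 3 at 5 months (adjusted p = 0.0687, 0.0641 and 0.0519). Those 8 genes were also the ones whose wild-type groups did not overlap. Cxcl10 (log2 fold change 0.48, adjusted p = 0.0569) and Cxcl1 (0.31, adjusted p = 0.152) did not pass, although Cxcl10 did without replicate 1 at 5 months (adjusted p = 0.0203).

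In PPARγ-KO, 3 of the 10 rose between the times and 6 had a higher fitted level, with a median of 0.32. Ccl6 rose 3.05-fold (log2 fold change 1.61, SE 0.09, adjusted p = 8.53e-07), Ccl9 1.95-fold (0.97, SE 0.09, adjusted p = 1.81e-05) and Cxcl16 1.502-fold (0.59, SE 0.14, adjusted p = 0.00493). These 3 calls were kept in all 13 alternatives. Ccl5 was higher without overlap, but mostly through replicate 1 at 5 months (log2 fold change 2.14, SE 0.84, adjusted p = 0.101), and was at 0.93 without it (adjusted p = 0.0508). Ccl24 lay below its 2-month level in all 3 libraries without passing the test (log2 fold change -0.57, SE 0.28, adjusted p = 0.120). Cxcl10 passed as lower when replicate 1 at 5 months was left out (log2 fold change -0.87, adjusted p = 0.0215), and with it was at -0.36 (adjusted p = 0.426). Ccl2 (0.56), Cxcl9 (0.09), Ccl4 (-0.02) and Cxcl1 (-0.40) did not pass, with adjusted p-values from 0.109 to 0.980.

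**Figure D4:**
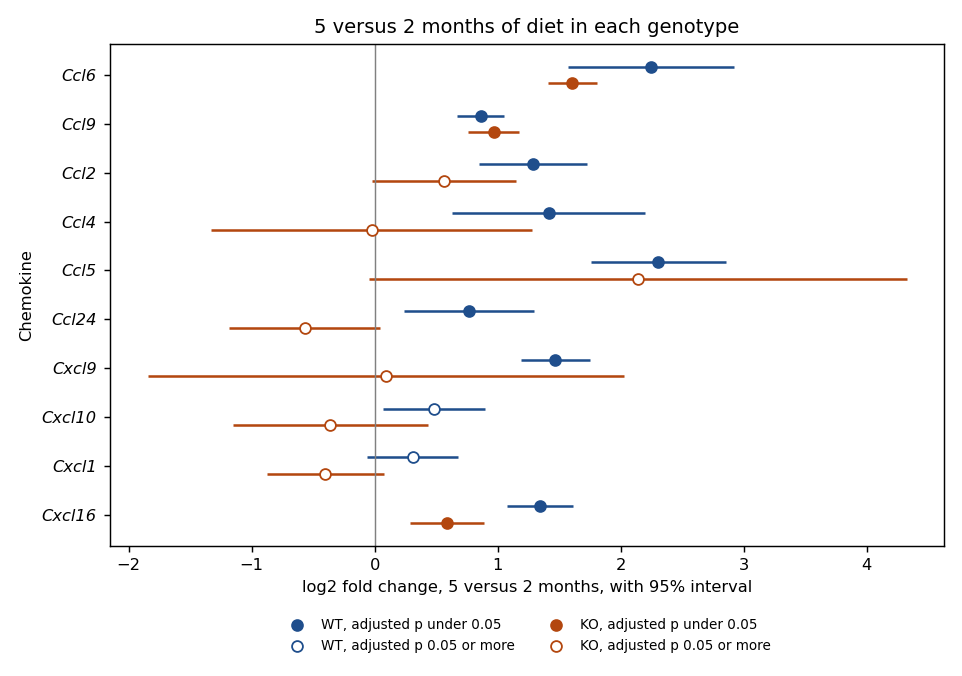
Log2 fold change of each chemokine at 5 against 2 months of FFD (horizontal axis) with its 95% interval in wild-type (blue) and in libraries labelled PPARγ-KO (red-brown); filled points have an adjusted p below 0.05. Of the points, 8 in wild-type and 3 in PPARγ-KO are filled, Ccl9 nearly coincides in both, and the PPARγ-KO intervals of Ccl4, Ccl5 and Cxcl9 are wide.

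The order of the levels, compared as normalized CPM per kb of gene length, differed among the groups. In 2-month wild-type livers Ccl9 was highest at 9.09 ± 0.924 CPM per kb (SD, n = 3), followed by Ccl6 at 6.95 ± 2.51 and Cxcl9 at 5.53 ± 0.394, each overlapping the next in the order among these. Cxcl16, Cxcl1, Cxcl10, Ccl2, Ccl5, Ccl24 and Ccl4 followed in that order, from 3.64 ± 0.374 down to 0.903 ± 0.273. In 5-month wild-type livers Ccl6 came first at 33.0 ± 3.20, with no overlap with Ccl9 at 16.5 ± 0.499, while Ccl9 and Cxcl9 (15.3 ± 2.52) overlapped. Ccl5 followed Cxcl16 at 8.78 ± 2.28 and overlapped with it. In 5-month PPARγ-KO livers Ccl6 (13.7 ± 0.272) and Ccl9 (13.6 ± 1.71) had the same level within their spread. The lowest, Ccl24 and Ccl4, were at 1.03 ± 0.274 and 0.752 ± 0.250 and overlapped as well. In 2-month PPARγ-KO livers the order was led by Ccl9 (6.94 ± 0.329) and Cxcl9 (6.68 ± 3.47), which overlapped.

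Of 22 chemokine receptor genes, 13 could be tested at 5 months, 11 of which had a lower fitted level in PPARγ-KO and 4 of which passed as lower, against 9.51% of all genes. Ccr2, the receptor of Ccl2's product, had 8.11, 9.67 and 10.1 normalized CPM in wild-type and 4.91, 5.07 and 4.67 in PPARγ-KO (log2 fold change -0.92, adjusted p = 0.000707). It was also lower at 2 months, at 6.82, 6.90 and 7.61 against 2.95, 3.76 and 2.75 (log2 fold change -1.18, adjusted p = 0.0107), when Ccl2 did not pass. Cxcr6, the receptor for the product of Cxcl16, fell at 5 months on 8 to 44 counts (log2 fold change -1.45, adjusted p = 0.0154), and so did Cxcr4 (-0.95, adjusted p = 0.00615). At 2 months 14 receptors were tested and 2 passed as lower, against 1.78% of all genes, Ccr2 and Cx3cr1 (-1.15, adjusted p = 0.0401). Cxcr4 and Cx3cr1 are named here after their values were seen. Ccr1 (-1.496 and -0.76 at 2 and 5 months, adjusted p = 0.167 and 0.269) and Cxcr3 (-0.28 at 5 months, adjusted p = 0.726) did not pass. Ccr3, with 0 to 3 counts per library, and Cxcr2, with 1 to 11, were too rare to test.

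Of 27 further chemokine genes, 3 (Ccl19, Ccl21a and Ccl27a) had more than 1 gene identifier and were left out. At 5 months 14 of the other 24 could be tested, 10 with a lower fitted level in PPARγ-KO, and 2 were called lower and 1 higher, near the 9.51% and 8.90% of all genes called in these directions. Cxcl5, a neutrophil attractant, and Cxcl13, a B cell attractant, were the lower ones by the fit, on 11 to 21 against 0 to 3 counts (fitted log2 fold change -3.60, adjusted p = 0.00211) and 11 to 22 against 0 to 5 counts (-2.89, adjusted p = 0.00727). Cxcl12, far more abundant than any of the 10 genes described here, rose slightly, from 190 ± 8.45 to 228 ± 5.41 normalized CPM (0.27, adjusted p = 0.00903). Ccl3, Ccl7, Ccl8, Cxcl2 and Cxcl14 had log2 fold changes of -0.77, -1.003, -1.57, -1.33 and -0.57 and did not pass (adjusted p = 0.0547 to 0.355). At 2 months 11 could be tested, and the 1 that passed was Cxcl14 (-1.41, adjusted p = 0.0172), which was lower, as 1.78% of all genes were. Cxcl13 had 16 to 71 counts in PPARγ-KO then and 4 to 8 in wild-type (2.52, adjusted p = 0.0624), and its genotype difference changed between the times (-5.42, adjusted p = 0.0130).

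Genes of the NF-κB and interferon pathways, both regulators and induced genes, were examined as 2 lists. These lists were chosen with earlier results of these data known, so their shares below are a description. Of 23 tested NF-κB pathway genes, 10 were called lower in PPARγ-KO at 5 months and none higher, with a median log2 fold change of -0.39, while 9.51% of all genes were called lower and 8.90% higher. The cytokine gene Il1b (-1.43, adjusted p = 0.000986), Ticam2, an adaptor of toll-like receptor signaling (-1.39, adjusted p = 0.0316), Il1rn, the interleukin-1 receptor antagonist (-1.17, adjusted p = 0.000625), and Tlr4, the endotoxin receptor (-0.95, adjusted p = 0.00166), had the largest changes. At 2 months edgeR called 0 of 22, where 1.78% of all genes were called in each direction. An unadjusted p under 0.05 was found for 5, and DESeq2 called 2. DESeq2 also called more of all genes than edgeR did, and shares of all genes at these criteria are not given. Neither count is therefore read as a change of the list. Of 24 tested interferon pathway genes, 5 were called higher in PPARγ-KO at 2 months and none lower, against 1.78% of all genes in each direction. The list was mixed, with 16 higher and 8 lower fitted levels and a median of 0.11 on the log2 scale. The largest calls were Isg15 (0.74, adjusted p = 0.0392), Ifit1 (0.67, adjusted p = 0.0144), Irf9 (0.50, adjusted p = 0.0268) and Irf7 (0.42, adjusted p = 0.0257). At 5 months 4 of 24 were called lower, against 9.51% of all genes, namely Ciita (-1.25, adjusted p = 0.0258), the regulator of MHC class II, and the receptor subunit genes Ifnar2 (-0.37, adjusted p = 0.00300), Ifngr1 (-0.37, adjusted p = 0.00504) and Ifngr2 (-0.25, adjusted p = 0.0408).

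Markers of the cells that make or answer chemokines differed between the groups as well. The summed level of 12 macrophage markers, Adgre1 and Cd68 among them, was 544 to 711 normalized CPM in wild-type and 604 to 693 in PPARγ-KO at 2 months, and 1542 to 1756 and 782 to 969 at 5 months. Cd5l, a scavenger protein of Kupffer cells, was its most abundant gene, at 583 ± 29.3 in wild-type and 254 ± 32.8 in PPARγ-KO at 5 months (SD, n = 3 each). At 5 months 11 of the 12 were called lower in PPARγ-KO, and at 2 months 2 were called higher, where 9.51% and 1.78% of all genes were called in these directions. Markers of monocytes and recruited macrophages, 9 genes that include Ly6c2 and Itgam, summed to 210 to 326 and 164 to 180 at 2 months and to 532 to 835 and 400 to 540 at 5 months, with 2 of 8 and 5 of 9 called lower (1.78% and 9.51% of all genes). The 11 T and NK cell markers summed to 3.82 to 4.53 and 3.25 to 6.51 at 2 months and to 9.77 to 18.8 and 5.05 to 12.4 at 5 months, with 1 of the 9 tested called lower at 5 months, a share close to the 9.51% of all genes.

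Neutrophil markers, 8 genes that include S100a8 and S100a9, summed to 8.29 to 14.3 in wild-type and 4.42 to 7.596 in PPARγ-KO at 5 months. Only 3 of the 8 could be tested then, and 2 were called lower, against 9.51% of all genes. Csf3r was the most abundant, at 6.37 ± 1.68 in wild-type and 2.82 ± 0.484 in PPARγ-KO (SD, n = 3 each). S100a8 overlapped between the genotypes, and Ly6g and Mpo had 0 to 2 counts per library. The 5 eosinophil markers summed to 18.3 to 25.9 and 8.41 to 11.1, but of the defining ones Epx had no count in any of the 12 libraries and Prg2 stayed under 0.3 normalized CPM, so that Ear2 and Siglecf, also found on other cells, were the only ones tested. The 9 hepatocyte markers, of which Alb made up most of the sum, came to 58846 to 63157 in wild-type and 73714 to 86599 in PPARγ-KO at 5 months, and to 55793 to 66694 and 71859 to 85168 at 2 months. They did not all go one way. At 5 months 3 were called higher (Alb, Hnf4a and Tat) and 1 lower by edgeR, where 8.90% and 9.51% of all genes were. At 2 months none was called higher and 1 lower, against 1.78% of all genes in each direction. The lower one was the drug-metabolizing enzyme gene Cyp3a11, at 6835 ± 311 in wild-type and 3033 ± 812 in PPARγ-KO at 5 months (adjusted p = 0.00203 by edgeR) and at 2409 ± 127 and 1742 ± 121 at 2 months (adjusted p = 0.0268), and it is named after its values were seen.

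The 7 stellate cell markers summed to 417 to 449 normalized CPM in wild-type and 327 to 355 in PPARγ-KO at 2 months. At 5 months they summed to 436 to 498 and 383 to 423, and the groups overlapped at neither time. Of the 7, 1 was called lower at each time, where 1.78% and 9.51% of all genes were, so the 5-month count is near that share. The sums of the 7 endothelial markers overlapped at 2 months (400 to 490 and 426 to 456) and were lower in PPARγ-KO at 5 months (307 to 318 and 274 to 290). At 5 months 3 of the 7 were called lower, against 9.51% of all genes. The 5 B cell markers summed to 4.92 to 6.76 in wild-type and 1.69 to 2.93 in PPARγ-KO at 5 months. Of the 3 tested then, 2 were called lower, against 9.51% of all genes. The sums of the dendritic cell and cholangiocyte markers overlapped between the genotypes at 5 months. At 2 months the cholangiocyte sums were 99.9 to 181 in wild-type and 67.5 to 87.8 in PPARγ-KO, without overlap. Most of that sum was Spp1, at 128 ± 40.6 and 67.7 ± 9.66 (SD, n = 3 each). Spp1 is also in the list of monocytes and recruited macrophages. The part of these marker changes in the chemokine values was not tested.

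**Figure D5:**
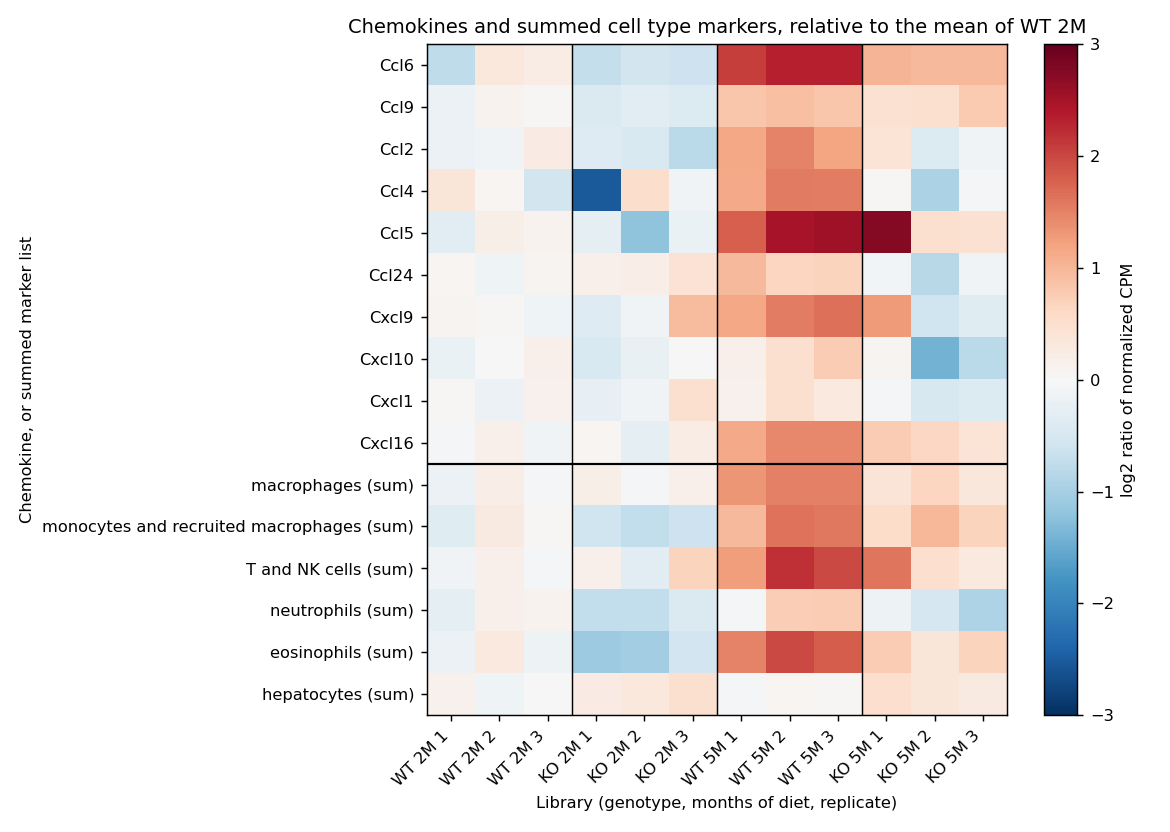
Log2 ratio of normalized CPM (colour, red higher and blue lower) to the mean of the 2-month wild-type libraries, for the 10 chemokines and for 6 summed marker lists (rows) in each of the 12 libraries (columns). The macrophage sum, at 1542 to 1756 in WT 5M and 782 to 969 in KO 5M, and Ccl6, Cxcl16 and Ccl2 are highest in WT 5M, and replicate 1 of KO 5M stands out for Ccl5, Cxcl9 and the T and NK cell sum.

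Over the 12 libraries, the genes whose log2 level was most like that of a chemokine were found among about 13170 genes with a mean of at least 1 CPM. These likenesses were picked as the highest and are a description, as the 4 groups set much of the spread in every gene. Ccl6 was most like Sdcbp, Pak1 and Capg (r = 0.990, 0.988 and 0.987). Cxcl16 was most like C1qb and C1qc, complement genes of macrophages, and Rpl23a (r = 0.987, 0.985 and 0.984). Ccl9 was most like Twf2, Hexa and Krt8 (r = 0.984, 0.984 and 0.980). Ccl2 was most like Evi2a, Ifi204 and Pilra (r = 0.970, 0.956 and 0.955). The genes most like Cxcl9 were Gbp2, an interferon-induced GTPase, Il2rb, a cytokine receptor chain of T and NK cells, and Tgtp2 (r = 0.955, 0.948 and 0.947). Those most like Ccl5 were Adamdec1, Cd8a, the co-receptor of cytotoxic T cells, and Cd207 (r = 0.944, 0.941 and 0.939). Cxcl10 was nearest to Fmnl1, Gm4070 and F630028O10Rik (r = 0.923, 0.913 and 0.913), Cxcl1 to Gvin1, Gbp2b and Trpm2 (r = 0.901, 0.878 and 0.873), Ccl24 to Cd300e, Hsd17b6 and Slc3a1 (r = 0.896, 0.893 and 0.879) and Ccl4 to Atp2b1, Armc9 and Cmklr1 (r = 0.887, 0.886 and 0.879).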

How the data were processed

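Total RNA of liver was extracted with TRIzol and sequenced by Novogene on an Illumina NovaSeq platform. The authors deposited raw counts per gene for 54532 genes in each library, on mm10. The paper's methods name STAR and the submitters' processing notes HISAT2, and the counter, annotation version and use of strand are not given in the sources used here.

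Counts were tested with edgeR 4.0.16 in R 4.3.3 (filterByExpr, TMM, robust quasi-likelihood fit, two-sided test, Benjamini-Hochberg adjustment over all genes tested, threshold 0.05), with the 6 libraries of each comparison in its own fit and all 12 for the difference between times. Normalized CPM came from 1 TMM scale, and depth was 16367775 to 27452284 counts. The results were recomputed with DESeq2 1.42.0, with its size factors in edgeR, with library sizes as the only scaling, without the expression filter, with a minimum of 10 counts required throughout, with a replicate block, with 1 fit of all 12 libraries, at the study's threshold (unadjusted p under 0.05 and 1.3-fold) and without each library in turn. The tests were checked on simulated data.

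All 10 chemokines were named, with receptors of these ligands (1 of them is not reported here), listed other chemokines, called genes of the NF-κB and interferon lists (at most 4 per list and time, by size), the 3 genes most like each chemokine and the first markers of each cell type. The chemokines and lists were chosen with earlier results of these data known. The labels give the same replicate numbers in each group but no shared animals, litters or days. Over the 5000 most abundant genes, same-numbered libraries of both genotypes correlated at 0.221, 0.325 and 0.139 at 2 months once group means were removed. At 5 months the values were -0.0751, -0.0618 and -0.185. The block was run in every comparison, and any pairing at 2 months was read from these same libraries. Nothing in the labels says that replicates are separate animals, so p-values measure the spread between libraries. Promoters and motif searches used RefSeq sequences of GRCm38.p6. Runs of 50 bases shared with other genes were absent or few in 8 of the 10 genes, and made up 16.9% of Cxcl16 and 3.58% of Cxcl10, each with the overlapping gene named in the text.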

Additional observations from a re-analysis of the deposited data

Results flagged for a closer look

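Ccl24 was the 1 chemokine of the 10 whose PPARγ-KO libraries all lay above wild-type at 2 months and all below it at 5 months. It was flagged for this pattern. Of all genes, 12.1% lay above at 2 months and 19.0% below at 5 months, and the share with both was not counted. The difference between the 2 genotype effects was -1.33 on the log2 scale (SE 0.35, 95% interval -2.08 to -0.59) and did not pass edgeR's test (adjusted p = 0.0731). The adjusted p ranged from 0.0294 with DESeq2 to 0.160 without PPARγ-KO replicate 2 at 5 months over the 18 alternatives, all with the same direction. The gene is rare, with 18 to 59 counts per library.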

How the results depend on the processing

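At 2 months, where edgeR called none of the 10 chemokines, the study's threshold gave 3, DESeq2 gave 1, no filter gave 2, the replicate block gave 1, 1 fit of all 12 libraries gave 1, and leaving out 1 library gave 0 to 2, all lower in PPARγ-KO. At 5 months the count of 7 ran from 4 (without PPARγ-KO replicate 2) to 9 (without PPARγ-KO replicate 1), and was 7 under the block, where the replicate numbers gave no sign of pairing. Replicate 1 stood out by its values for these same genes, so the count without it is a description. For the difference between the times, the study's threshold gave 4, DESeq2 gave 2, no filter gave 1, and leaving out 1 library gave 0 to 1. The counts over time stayed at 7 to 9 in wild-type and 3 to 4 in PPARγ-KO. The block made 9 wild-type calls and 4 PPARγ-KO calls, adding Cxcl10 (adjusted p = 0.0296) and Ccl5 (adjusted p = 0.0255), but the labels name no pairing across the times. Same-number correlations were 0.237, 0.184 and 0.0186 in wild-type and -0.0356, 0.219 and -0.0181 in PPARγ-KO. Libraries of different numbers reached 0.266 in wild-type and 0.222 in PPARγ-KO, so these values do not settle whether libraries were paired.

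All sign changes were in fitted values that did not pass the test. At 2 months Cxcl16 was -0.061 with library size alone and -0.10 to 0.14 with 1 library left out, Ccl4 -0.74 to 0.22, Cxcl1 -0.17 to 0.23 and Cxcl9 -0.24 to 0.53. For PPARγ-KO over time, Ccl4 was 0.084 and Cxcl9 -0.029 with the block, and with 1 library left out Ccl4 ran from -0.48 to 0.47 and Cxcl9 from -0.75 to 0.62. For the difference between times, Ccl5 ran from -1.38 to 0.19 and Ccl9 from -0.000360 to 0.19. The cause of these changes was not tested beyond the libraries named.

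Over all genes, the calls at 2 months rose from 519 to 988 with DESeq2, 1562 without a filter, 817 with the block, 1153 in 1 fit of all 12 libraries, 1608 at the study's threshold and 1577 without wild-type replicate 1, and were 117 to 238 without any 1 of the other 5 libraries. At 5 months they fell from 2602 to 1603 and 1593 without wild-type replicate 2 or 3. For the difference between the times they went from 238 to 594 with DESeq2, 793 without a filter, 1563 at the study's threshold and 567 without wild-type replicate 1 at 2 months, and were lowest, at 83, without wild-type replicate 3 at 5 months. The block changed no call of the 10 other than those of Ccl9 at 2 months and of Cxcl10 and Ccl5 over time. Counts under about 60 per library limit Ccl4 and Ccl24, and Ccl4 was not tested when 10 counts were required in every library.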
